A study of Homo sapiens with 10 samples.

Results

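Among the genes that hypoxia-inducible factors (HIFs) are known to switch on, 10 with functions outside glycolysis were followed in QGP-1, a human cell line established from a pancreatic neuroendocrine tumor. They were CA9, NDRG1, EGLN1, EGLN3, P4HA1, ANKRD37, BNIP3, BNIP3L, KDM3A and ADM, taken by gene name from the 35606 genes listed in each of the deposited RNA-seq tables. All 10 were found in both tables. The genes were picked when their values in all 3 comparisons were already known, so their own differences are given as a description, without p-values.

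A HIF is a pair of proteins, an alpha subunit (HIF1A or EPAS1) and its partner ARNT. In cells with enough oxygen, the prolyl hydroxylases EGLN1, EGLN2 and EGLN3 add a hydroxyl group to the alpha subunit, using oxygen, iron and 2-oxoglutarate, and the VHL ubiquitin ligase then marks it for destruction. When hydroxylation stops, the alpha subunit accumulates, binds DNA with ARNT at sites that contain ACGTG or GCGTG, and raises the transcription of genes for glucose use, blood vessel growth, pH control, mitochondrial turnover and matrix formation. The synthesis of the HIF1A protein is also known to depend on the kinase mTOR, which Torin-1 inhibits.

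The 10 RNA-seq samples formed 5 groups of 2. In the knockdown experiment, QGP-1 cells carried dCas9-KRAB, a Cas9 without nuclease activity joined to a repressor, delivered by lentivirus, together with either the control guide sgNC or sgPIKFYVE-1, a single guide against the lipid kinase gene PIKFYVE, and were selected with puromycin. In the drug experiment, QGP-1 cells received DMSO, apilimod at 1 µM, an inhibitor of the PIKfyve kinase, or Torin-1 at 100 nM. The labels give 24 h for both drugs, while the text of the study gives a shorter exposure. No label says that the 2 samples of a group came from separate cultures, so the errors and p-values measure the spread between samples, which may be technical.

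Expression is given as CPM (read counts relative to the library total), scaled by the authors with the TMM method separately for each of the 2 experiments. Log2 fold changes were computed on log2(CPM + 1), with a standard error (SE) from limma, and a gene was called when its adjusted p was under 0.05. Each sample held an estimated 9.30 to 13.6 M reads, and 3 reads corresponded to 0.227 to 0.329 CPM, a bound for counting error alone. PIKFYVE itself, at 101 and 97.5 CPM in the sgNC samples, fell to 10.9 and 12.5 CPM under sgPIKFYVE-1, a log2 fold change of -2.98 (SE 0.098, limma adjusted p = 1.22e-14). All 7 neuroendocrine markers examined passed the filter of a mean of 1 CPM in both tables, and CHGA lay between 389 and 458 CPM over the 10 samples. Of 8 markers of stroma, endothelium and immune cells, COL1A1 and PECAM1 passed it, COL3A1 was at 0 in every sample, and the 8 together summed to 14.2 and 14.9 CPM with sgNC, 10.9 and 9.66 CPM with sgPIKFYVE-1, and 4.26 to 7.20 CPM over the drug samples. The 7 neuroendocrine markers summed to 7110 and 7403 CPM with sgNC and 6117 and 6372 CPM with sgPIKFYVE-1, and to 7147 and 7151 CPM with DMSO, 6304 and 6100 CPM with apilimod and 9137 and 9368 CPM with Torin-1. The 7 did not all move in the same direction. After knockdown 2 were higher and 5 lower, with apilimod 2 and 5, and with Torin-1 6 and 1. The sums rest largely on CHGB and SCG2. CHGB had 2477 and 2586 CPM with sgNC and 1555 and 1619 CPM with sgPIKFYVE-1. SCG2 had 4043 and 4084 CPM with DMSO and 5468 and 5622 CPM with Torin-1. The part of these markers in the results was not tested. In bulk RNA, fewer cells of a type and less RNA per cell cannot be told apart.

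The DNA just before the start of these genes is shown because the genes are grouped by a shared regulator that reads it. RefSeq promoter windows (GRCh38.p14, the 250 bases before the annotated start) were matched for 8 of the 10 genes, and NDRG1 and BNIP3L were not matched. On the strand of the gene, 5′ to 3′, with ACGTG and GCGTG in capitals wherever either occurs on either strand (so that CACGT and CACGC mark the reverse strand), the windows of 5 genes are chr9:35673678-35673927 on the forward strand for CA9, chr4:185396591-185396840 on the forward strand for ANKRD37, chr10:73096867-73097116 on the reverse strand for P4HA1, chr10:131981924-131982173 on the reverse strand for BNIP3 and chr14:33951075-33951324 on the reverse strand for EGLN3.
CA9: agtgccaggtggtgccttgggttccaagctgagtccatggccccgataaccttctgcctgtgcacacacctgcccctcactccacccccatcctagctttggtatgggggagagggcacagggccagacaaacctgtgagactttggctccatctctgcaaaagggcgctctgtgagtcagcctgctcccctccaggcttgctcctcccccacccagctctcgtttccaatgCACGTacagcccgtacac
ANKRD37: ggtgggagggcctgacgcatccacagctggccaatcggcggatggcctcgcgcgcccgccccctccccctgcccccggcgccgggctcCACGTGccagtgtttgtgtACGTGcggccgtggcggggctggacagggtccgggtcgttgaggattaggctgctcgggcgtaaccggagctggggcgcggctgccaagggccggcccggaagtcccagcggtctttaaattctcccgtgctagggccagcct
P4HA1: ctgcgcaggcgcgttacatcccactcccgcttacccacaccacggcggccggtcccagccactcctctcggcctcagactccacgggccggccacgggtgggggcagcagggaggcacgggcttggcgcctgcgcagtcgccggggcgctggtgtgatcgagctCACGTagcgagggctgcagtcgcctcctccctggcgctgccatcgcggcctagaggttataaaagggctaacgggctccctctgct
BNIP3: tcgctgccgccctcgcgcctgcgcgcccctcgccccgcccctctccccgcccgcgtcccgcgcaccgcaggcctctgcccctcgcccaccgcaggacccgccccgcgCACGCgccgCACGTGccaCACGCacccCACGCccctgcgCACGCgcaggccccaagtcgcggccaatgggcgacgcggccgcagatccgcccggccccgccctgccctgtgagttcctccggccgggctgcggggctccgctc
EGLN3: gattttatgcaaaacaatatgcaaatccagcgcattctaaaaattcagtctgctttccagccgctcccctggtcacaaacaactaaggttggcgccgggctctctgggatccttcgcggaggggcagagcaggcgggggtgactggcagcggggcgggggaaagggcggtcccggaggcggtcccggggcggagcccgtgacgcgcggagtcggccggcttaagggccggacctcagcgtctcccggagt

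The 5 windows differ in how many of these letters they hold. CA9 has 1 occurrence, which begins 18 bases before the start, and P4HA1 has 1, at 86 bases. ANKRD37 has 3, of which the ACGTG on each strand of a single CACGTG overlap, and BNIP3 has 6 between 143 and 104 bases before the start, again with an overlapping pair in a CACGTG. EGLN3 has no ACGTG or GCGTG in this window. The RefSeq starts of all 8 matched genes lie inside the longer genes of GENCODE release 29, the annotation used for the positions of genes given with their values. EGLN1 (13 bases), ADM (101 bases) and KDM3A (26 or 116 bases in its 2 overlapping windows) hold 1 each, so that 8 of the 9 windows (88.9%) and 7 of the 8 genes have at least 1, against 43.2% of 35116 windows of the same length in the whole table. Over all of those windows ACGTG occurred in 18.5% and GCGTG in 32.2%. Such a match describes letters in a window and is no measurement of binding.

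PIKFYVE knockdown was compared with sgNC to ask which transcripts depend on the kinase. All 10 genes were lower with sgPIKFYVE-1, both of whose samples lay under both sgNC samples for every gene. CA9 had the largest difference, at 17.0% of its control mean, followed by ANKRD37, P4HA1, NDRG1 and EGLN3 at 37.9% to 43.8%, and EGLN1 had the smallest, at 79.3%. All 10 were called lower, as were 20.9% of the 13591 genes tested, and lower values without overlap between groups were seen for 35.2% of all genes tested. The median log2 fold change of the 10 was -0.98, and that of all genes tested was -0.00. Log2 fold changes of -1 or below were found for 5 of the 10 and for 377 of all genes tested.

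**Figure D1:**
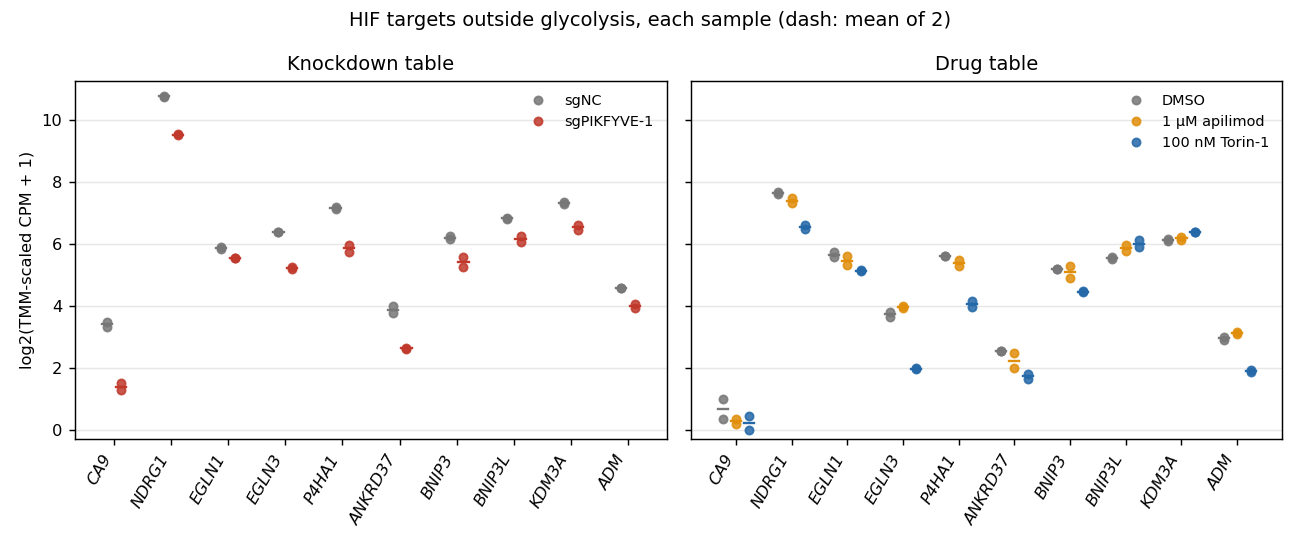
Expression of the 10 HIF targets in every sample, as log2(TMM-scaled CPM + 1) on the vertical axis, with the knockdown table on the left, the drug table on the right and the genes along the horizontal axis. Each point is a sample and each dash the mean of 2 samples of a group, and the sgPIKFYVE-1 points lie under the sgNC points for all 10 genes, the Torin-1 points lie above the DMSO points for BNIP3L and KDM3A, and CA9 is near 0 in the 6 drug samples.

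Both oxygen sensors of the group were lower after knockdown, by unequal amounts. EGLN3, the prolyl hydroxylase best known for being induced by the factor it controls (ENSG00000129521.13, chromosome 14, 33924231 to 34462774, reverse strand of GRCh38 in GENCODE release 29, as for all positions of genes here), had 82.6 and 82.0 CPM with sgNC and 36.9 and 35.2 CPM with sgPIKFYVE-1. The 2 samples of each group nearly coincided, and the log2 fold change was -1.17 (SE 0.077). EGLN1, the main oxygen sensor in most cells (ENSG00000135766.8, chromosome 1, 231363751 to 231425044, reverse strand), had 58.2 and 56.1 CPM with sgNC and 45.4 and 45.3 CPM with sgPIKFYVE-1. Its log2 fold change of -0.33 (SE 0.079) was the smallest of the 10.

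Of the other 2 members that are oxygen- and iron-dependent hydroxylating enzymes, P4HA1, the catalytic subunit of the collagen prolyl hydroxylase (ENSG00000122884.12, chromosome 10, 73007217 to 73096974, reverse strand), had 138 and 143 CPM in the control and 52.3 and 61.6 CPM in the knockdown. That difference, a log2 fold change of -1.29 (SE 0.074), ranked 153 from the lowest among 13591 genes. KDM3A, a demethylase of lysine 9 on histone H3 (ENSG00000115548.17, chromosome 2, 86440647 to 86492716, forward strand), had 155 and 163 CPM with sgNC against 86.7 and 96.2 CPM with sgPIKFYVE-1, a log2 fold change of -0.79 (SE 0.064).

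The mitochondrial pair, BNIP3 and its relative BNIP3L, encodes outer membrane receptors that recruit the autophagy machinery to mitochondria. BNIP3 (ENSG00000176171.11, chromosome 10, 131966455 to 131982013, reverse strand) had 70.0 and 74.9 CPM with sgNC and 46.5 and 37.2 CPM with sgPIKFYVE-1. BNIP3L (ENSG00000104765.16, chromosome 8, 26382898 to 26505636, forward strand) had 113 and 111 CPM in the control and 65.7 and 74.4 CPM in the knockdown. The knockdown samples of each gene were farther apart than its control samples, and the log2 fold changes were -0.78 (SE 0.093) for BNIP3 and -0.67 (SE 0.070) for BNIP3L.

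Among the products that act at or outside the cell surface, CA9, a membrane carbonic anhydrase that helps cells export acid (ENSG00000107159.13, chromosome 9, 35673856 to 35681159, forward strand), had 8.99 and 10.2 CPM with sgNC and 1.42 and 1.83 CPM with sgPIKFYVE-1. These correspond to an estimated 97 and 117 reads against 13 and 17. The log2 fold change of -2.01 (SE 0.222) ranked 33 from the lowest of all genes tested, and it was -2.50 with a pseudocount of 0.1 in place of 1. The exons of CA9 share 643 bases with ARHGEF39 on the opposite strand, which had a log2 fold change of -0.17 (SE 0.166, limma adjusted p = 0.453), and whether counting used the strand is not given in the sources used here.

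ADM, the secreted peptide adrenomedullin that dilates blood vessels (ENSG00000148926.10, chromosome 11, 10304680 to 10307397, forward strand), had 22.6 CPM in both sgNC samples and 14.1 and 15.7 CPM with sgPIKFYVE-1. Its log2 fold change was -0.57 (SE 0.125).

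NDRG1, a stress-responsive gene whose product is linked to differentiation and to suppression of metastasis (ENSG00000104419.14, chromosome 8, 133237171 to 133302022, reverse strand), had 1711 and 1744 CPM with sgNC and 742 and 723 CPM with sgPIKFYVE-1. The spread within groups was small beside that gap, and the log2 fold change was -1.24 (SE 0.039). ANKRD37, which encodes a small ankyrin-repeat protein (ENSG00000186352.9, chromosome 4, 185396021 to 185400628, forward strand), had 12.5 and 15.0 CPM against 5.26 and 5.18 CPM, a log2 fold change of -1.24 (SE 0.174). ANKRD37 shares 909 exonic bases with UFSP2 on the opposite strand, where the log2 fold change was -0.29 (SE 0.123, limma adjusted p = 0.0672).

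Torin-1 was compared with DMSO to ask how the same transcripts respond when mTOR itself is inhibited. CA9 was too low in the drug table to be tested, and of the other 9 genes 7 were lower and 2 were higher with Torin-1, none with overlap between groups. EGLN3 and P4HA1 had the largest differences, 4.17-fold and 3.04-fold lower than their DMSO means, and BNIP3L and KDM3A were higher, at 140% and 119% of theirs. The 7 were called lower, as were 21.8% of the 13520 genes tested, and the 2 were called higher, as were 16.6%. Groups that did not overlap were seen for 36.6% of all genes tested in the lower and 32.7% in the higher direction. The median log2 fold change of the 9 was -0.82 against -0.01 for all genes tested, and 4 of the 9 had log2 fold changes of -1 or below, as did 152 of all genes tested.

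EGLN3 had 13.0 and 11.6 CPM in DMSO and 2.89 and 3.02 CPM in Torin-1, so that its log2 fold change of -1.75 (SE 0.153) ranked 16 from the lowest of the 13520 genes. P4HA1 had 48.2 and 48.3 CPM against 14.7 and 17.0 CPM, a log2 fold change of -1.55 (SE 0.103) that ranked 24. NDRG1 had 194 and 204 CPM in DMSO and 96.2 and 88.2 CPM in Torin-1, with a log2 fold change of -1.10 (SE 0.067). These 3 were also among the 5 genes with log2 fold changes of -1 or below after knockdown.

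ADM had 6.43 and 7.05 CPM in DMSO and 2.79 and 2.67 CPM in Torin-1, a log2 fold change of -1.05 (SE 0.175). ANKRD37 had 4.89 and 4.81 CPM in DMSO and 2.14 and 2.50 CPM in Torin-1. BNIP3 had 35.5 and 35.6 CPM in DMSO and 20.8 and 21.1 CPM in Torin-1. EGLN1 differed least of the 7, with 46.7 and 51.8 CPM in DMSO and 33.7 and 34.7 CPM in Torin-1. The log2 fold changes of the last 3 genes were -0.82 (SE 0.218), -0.74 (SE 0.118) and -0.51 (SE 0.103), respectively. UFSP2, which overlaps ANKRD37, rose with Torin-1 (log2 fold change 0.48, SE 0.116, limma adjusted p = 0.00499).

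The 2 higher genes departed from their direction after knockdown. BNIP3L had 44.6 and 46.3 CPM in DMSO and 58.6 and 68.6 CPM in Torin-1, a log2 fold change of 0.47 (SE 0.093), while its partner BNIP3 was lower. KDM3A had 67.3 and 70.1 CPM in DMSO and 81.5 and 82.1 CPM in Torin-1, a log2 fold change of 0.25 (SE 0.072), and its call was lost without DMSO replicate 1, when the log2 fold change was 0.22. BNIP3L shares 56 exonic bases on the opposite strand with the pseudogene SDAD1P1, which rose with Torin-1 (log2 fold change 1.60, SE 0.284, limma adjusted p = 0.000585) and reached 4.01 CPM at most, and 330 bases with PNMA2, at -0.17 (SE 0.156, limma adjusted p = 0.432). The part of SDAD1P1 in the value of BNIP3L was not tested. Knockdown and Torin-1 have separate controls in separately scaled tables, and the difference between their effects was not tested.

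CA9 had 0.272 and 0.995 CPM in DMSO, an estimated 3 and 12 reads. With apilimod it had 0.291 and 0.151 CPM, or 3 and 2 reads, and with Torin-1 0.373 and 0 CPM, or 4 and 0 reads. At this depth a fall with either drug was not detectable, and no treated sample lay above the higher DMSO sample.

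**Figure D2:**
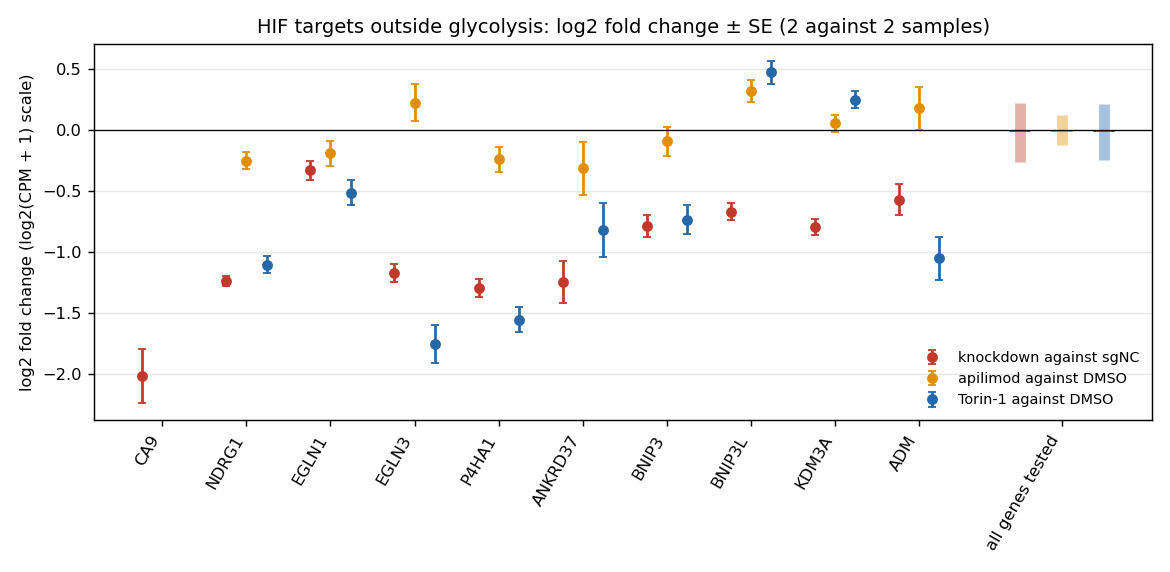
Log2 fold change on the log2(CPM + 1) scale of each HIF target against the control of its own table, as points with bars of 1 SE from limma, with CA9 shown for the knockdown only, and on the right the interquartile range and median of all genes tested in each comparison. The knockdown points lie between -2.01 and -0.33, the apilimod points between -0.31 and 0.32, and the Torin-1 points between -1.75 and 0.47.

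Apilimod inhibits the kinase that sgPIKFYVE-1 depletes and was compared with the same DMSO samples as Torin-1. The 9 genes were divided, 5 with lower and 4 with higher means, and none differed by more than 0.32 on the log2 scale. BNIP3L was called higher and NDRG1 lower, where 5.75% and 2.79% of the 13520 genes tested were called in those directions, and the median log2 fold change of the 9 was -0.09 against -0.01 for all genes. Groups did not overlap for 6 of the 9, which were 3 higher (EGLN3, BNIP3L and ADM) and 3 lower (NDRG1, P4HA1 and ANKRD37), while 24.8% of all genes tested were higher and 25.9% lower without overlap. Over all genes, 778 were called higher and 377 lower, and after quantile normalization 658 and 536.

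BNIP3L had 53.4 and 60.8 CPM with apilimod against 44.6 and 46.3 CPM with DMSO, a log2 fold change of 0.32 (SE 0.093). NDRG1 had 175 and 159 CPM against 194 and 204 CPM, a log2 fold change of -0.25 (SE 0.067). Neither call held when DMSO replicate 1, DMSO replicate 2 or apilimod replicate 2 was left out, although both log2 fold changes kept their sign.

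The other 7 genes were not called, with log2 fold changes between -0.31 and 0.22. EGLN3 had 14.9 and 14.1 CPM with apilimod and ADM 7.57 and 7.94 CPM, each a little above both DMSO samples, with log2 fold changes of 0.22 (SE 0.153) and 0.18 (SE 0.175). P4HA1 had 38.4 and 43.2 CPM and ANKRD37 3.01 and 4.54 CPM, below both DMSO samples, with log2 fold changes of -0.24 (SE 0.103) and -0.31 (SE 0.218). EGLN1 (38.7 and 47.6 CPM), BNIP3 (29.1 and 38.1 CPM) and KDM3A (74.3 and 68.4 CPM) overlapped with DMSO. For EGLN1, P4HA1, ANKRD37, BNIP3 and ADM, and for BNIP3L above, apilimod replicate 1 was the lower of the pair. For EGLN3, KDM3A and NDRG1 it was the higher. Without that replicate the log2 fold change of BNIP3 moved from -0.09 to 0.10 and that of KDM3A from 0.05 to -0.01.

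The 9 genes that could be compared over both tables did not move as a single block. Across the 10 samples, each taken as its difference from the mean of its own control group, Pearson's r between a gene and the mean of the other 8 was 0.97 for NDRG1, 0.95 for BNIP3, 0.95 for P4HA1, 0.94 for ANKRD37, 0.88 for EGLN3, 0.85 for ADM and 0.81 for EGLN1. It was 0.40 for KDM3A and 0.25 for BNIP3L, the pair that was higher with Torin-1. The points share libraries and depth within a sample, and the values are a description. Each gene is centred on its own controls, so r largely restates the group differences above, for members picked with those known. Of 13226 other genes compared over the same 10 samples, those most like the mean profile of the 9 were TNFRSF12A (r = 0.99), the pyruvate dehydrogenase kinase PDK1 (0.98), PPFIA4 (0.98), GNAL (0.98) and ZNF511 (0.98). PDK1 had log2 fold changes of -1.21 (SE 0.069) with sgPIKFYVE-1, 0.10 (SE 0.080) with apilimod and -0.83 (SE 0.080) with Torin-1.

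The genes that encode and control the HIFs were listed next, 15 in all with EGLN2 and without the members, of which 14 were tested and HIF3A was too low. Like the members, this list and those below were chosen with earlier results of these data known. Their counts and p-values are therefore no independent evidence. After knockdown, 2 rose and 3 fell, with a median log2 fold change of 0.09, where 21.6% of all genes tested were called higher and 20.9% lower. HIF1A rose from 181 and 172 CPM to 198 and 223 CPM (log2 fold change 0.25, SE 0.059, limma adjusted p = 0.00185), a call that was lost without the filter on low values and without a variance trend (adjusted p = 0.11 for the latter, the highest of its alternatives). EPAS1 fell from 290 and 269 CPM to 241 and 232 CPM (log2 fold change -0.24, SE 0.051, limma adjusted p = 0.000953, and 0.0913 without a variance trend, where the call was lost), ARNT fell by 0.22 on the log2 scale (limma adjusted p = 0.0126) and VHL by 0.36 (limma adjusted p = 0.00045). ELOC, a subunit of the VHL ligase, rose by 0.25 (limma adjusted p = 0.0174). EGLN2, with a log2 fold change of 0.19 (limma adjusted p = 0.0889), and HIF1AN, the asparagine hydroxylase that limits HIF activity, with -0.04 (limma adjusted p = 0.65), did not pass the test. The calls of ARNT and ELOC were lost without sgNC replicate 2 or sgPIKFYVE-1 replicate 2, and that of ELOC also without sgNC replicate 1, with adjusted p up to 0.132 and 0.0958.

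With Torin-1, 3 of the 14 rose and 5 fell, where 16.6% of all genes tested were called higher and 21.8% lower. HIF1A fell from 183 and 181 CPM in DMSO to 133 and 145 CPM (log2 fold change -0.39, SE 0.057, limma adjusted p = 0.000121), and EPAS1 rose from 202 and 190 CPM to 244 and 252 CPM (0.33, SE 0.054, limma adjusted p = 0.000268). ELOC and ELOB, which form a pair in the VHL ligase, fell by 0.63 and 0.46 on the log2 scale (limma adjusted p = 0.000127 and 0.000404), and CITED2, which competes with HIFs for their coactivator, fell by 0.53 (limma adjusted p = 0.00755). ARNT2, a relative of ARNT, rose by 0.32 (limma adjusted p = 0.00207), and the coactivator EP300 rose by 0.21 (limma adjusted p = 0.0354). ARNT had a log2 fold change of 0.03 (limma adjusted p = 0.795), VHL 0.06 (limma adjusted p = 0.607), EGLN2 -0.21 (limma adjusted p = 0.0578) and HIF1AN 0.12 (limma adjusted p = 0.197). The calls of CITED2 and EP300 were lost without DMSO replicate 2 (adjusted p = 0.0977 and 0.326), that of CITED2 also without Torin-1 replicate 2 and that of EP300 also without Torin-1 replicate 1.

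With apilimod, 2 of the 14 rose, where 5.75% of all genes tested were called higher. HIF1A rose to 216 and 215 CPM (log2 fold change 0.24, SE 0.057, limma adjusted p = 0.0144) and EGLN2 from 44.6 and 45.9 CPM to 55.8 and 54.7 CPM (0.28, SE 0.081, limma adjusted p = 0.0462). Both calls were lost when any of the DMSO or apilimod samples was left out, with adjusted p up to 0.163 for HIF1A and 0.253 for EGLN2 over all alternatives. EPAS1 had 225 and 216 CPM, a log2 fold change of 0.17 (limma adjusted p = 0.0773). ARNT, VHL and HIF1AN had log2 fold changes of -0.02, -0.03 and -0.04 (limma adjusted p = 0.943, 0.9 and 0.804). Transcript levels do not show the amount of HIF protein, which hydroxylation controls.

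**Figure D3:**
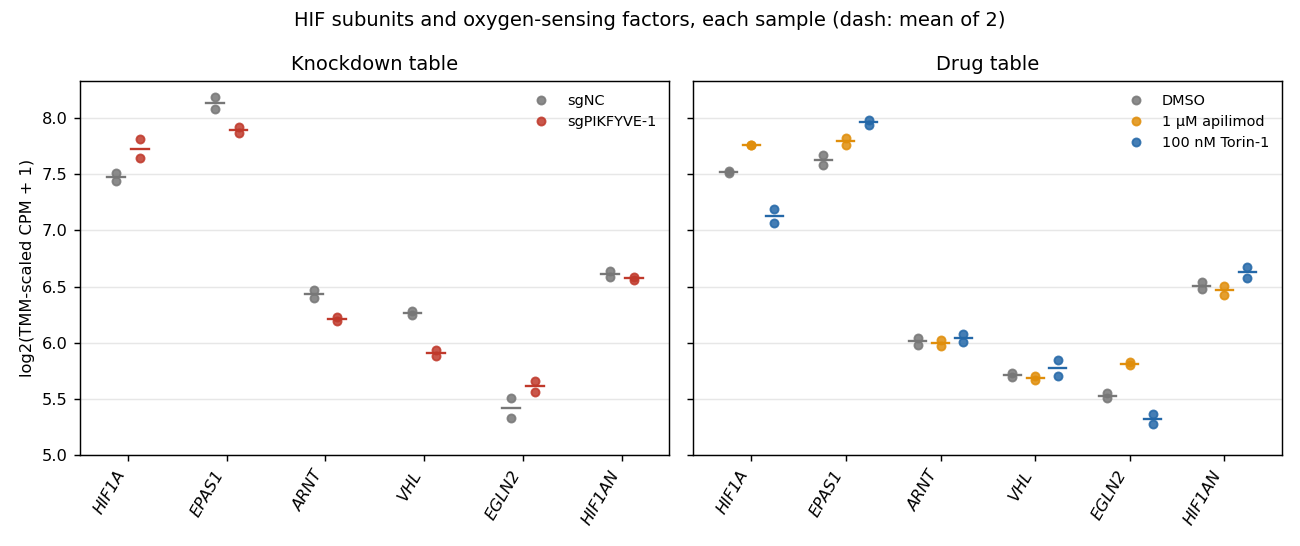
Expression of HIF1A, EPAS1, ARNT, VHL, EGLN2 and HIF1AN in every sample, as log2(TMM-scaled CPM + 1) on a vertical axis that begins at 5, with the knockdown table on the left and the drug table on the right, where each point is a sample and each dash the mean of 2. HIF1A is higher with sgPIKFYVE-1 and with apilimod than in the control of each, and it is lower with Torin-1, where EPAS1 is higher than in DMSO.

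Further HIF targets outside glycolysis were listed from general knowledge, though with earlier results of these data known. They were 35 genes, of which 31 were tested in the knockdown table and 30 in the drug table. After knockdown 21 fell and 3 rose, with a median log2 fold change of -0.53, where 20.9% and 21.6% of all genes tested were called in those directions. Among those that fell were PPFIA4, from 31.2 and 28.4 CPM to 5.26 and 5.39 CPM (log2 fold change -2.28, SE 0.145, limma adjusted p = 2.57e-10), and the mitochondrial adenylate kinase AK4 (-1.21, SE 0.074, limma adjusted p = 1.32e-10). The 3 that rose were TFRC, the transferrin receptor that brings iron into cells, from a mean of 160 to 535 CPM, HILPDA, a lipid droplet protein, from 22.8 to 32.8 CPM (log2 fold change 0.51, limma adjusted p = 0.000669), and the secreted hormone STC2 (0.28, limma adjusted p = 0.0129), whose call was lost without sgNC replicate 2 or sgPIKFYVE-1 replicate 2.

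With Torin-1, 17 of the 30 fell and 4 rose, with a median of -0.39, where 21.8% and 16.6% of all genes tested were called in those directions. DDIT4, which restrains mTOR, fell from a mean of 40.3 to 5.12 CPM, the transcription factor BHLHE40 from 53.2 to 9.60 CPM (log2 fold change -2.36, limma adjusted p = 3.91e-10) and AK4 from 30.0 to 5.43 CPM (-2.27, limma adjusted p = 9.87e-09). Among those that rose were the nuclear receptor RORA (0.63, limma adjusted p = 2.56e-05) and WSB1, a ubiquitin ligase subunit (0.54, limma adjusted p = 3.94e-05). With apilimod 5 rose, where 5.75% of all genes tested were called higher, and the median was 0.11. BHLHE40 rose by 1.20 (limma adjusted p = 5.98e-07), DDIT4 by 1.06 (4.3e-05) and STC2 by 0.93 (5.66e-05) on the log2 scale, and TFRC and the angiogenic factor VEGFA by 0.65 (4.08e-06) and 0.56 (0.00032). TFRC fell with Torin-1 (log2 fold change -1.68, limma adjusted p = 1.68e-10). VEGFA fell after knockdown (-0.37, limma adjusted p = 4.09e-05) and with Torin-1 (-0.46, 0.000444). BHLHE40 and DDIT4 also fell after knockdown (-0.72, limma adjusted p = 3.67e-09, and -0.53, 6.53e-07), while TFRC and STC2 rose there, as above.

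For reference beside the targets outside glycolysis, 19 glycolytic HIF targets were listed. Over all genes tested, 20.9% were called lower after knockdown and 21.8% with Torin-1, and apilimod called 5.75% higher and 2.79% lower. Of the 19 listed, 18 fell after knockdown, led by the lactate exporter SLC16A3 (log2 fold change -2.29, limma adjusted p = 3.5e-11), the regulatory enzyme PFKFB3 (-1.43, 2.71e-12) and hexokinase HK2 (-0.93, 2.13e-11), and the median was -0.50. With Torin-1 18 fell, with a median of -0.999, led by LDHA (-1.59, limma adjusted p = 2.49e-11), HK2 (-1.46, 2.15e-09) and ENO1 (-1.39, 2.8e-11). With apilimod 4 rose, among them PFKFB4 (1.14, limma adjusted p = 1.11e-05), the aldolase ALDOC (1.07, 2.91e-08) and the glucose transporter SLC2A3 (0.76, 0.0033), while LDHA fell by 0.17 (0.0285), with a median of -0.02 over the list. The calls of LDHA and SLC2A3 were lost without DMSO replicate 1 or apilimod replicate 1, and that of LDHA also without DMSO replicate 2, with adjusted p up to 0.306 for LDHA.

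**Figure D4:**
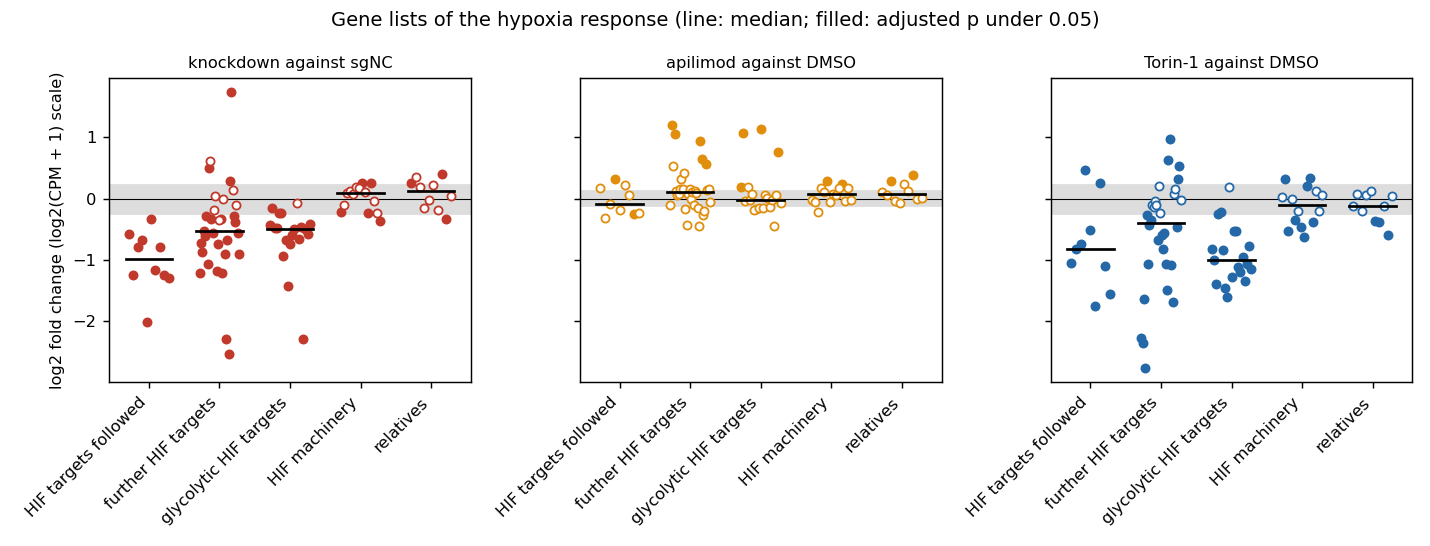
Log2 fold change on the log2(CPM + 1) scale of every tested gene in 5 lists, 1 panel per comparison, where each point is a gene, filled if its adjusted p was under 0.05, each line the median of its list and the grey band the interquartile range of all genes tested. After knockdown the medians are -0.98 for the 10 HIF targets followed here, -0.53 for the further targets and -0.50 for the glycolytic targets, with Torin-1 they are -0.82, -0.39 and -0.999, and with apilimod the medians of all 5 lists lie between -0.09 and 0.11.

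Close relatives of the members were examined in the same fits, 14 genes of which 10 were tested. Over all genes tested, the knockdown called 21.6% higher and 20.9% lower, Torin-1 16.6% and 21.8%, and apilimod 5.75% and 2.79%. CA12 and P4HA2 also stand among the further targets above. After knockdown NDRG4 rose (log2 fold change 0.40, limma adjusted p = 0.000257), as did CA11 (0.26, limma adjusted p = 0.04), and P4HA2, the other collagen hydroxylase subunit, fell (-0.34, limma adjusted p = 0.00102), with a median of 0.12. With Torin-1 P4HA2 fell by 0.59 (limma adjusted p = 0.000308), NDRG3 by 0.38 (0.00462) and NDRG2 by 0.37 (0.0437) on the log2 scale, with a median of -0.12. With apilimod NDRG4 rose by 0.38 (limma adjusted p = 0.0127) and EGLN2, listed here too, as above. The call of CA11 was lost when any knockdown-table sample but sgPIKFYVE-1 replicate 1 was left out, that of NDRG2 without either DMSO sample or Torin-1 replicate 2, that of NDRG3 without DMSO replicate 1, and that of NDRG4 with apilimod without either DMSO sample or apilimod replicate 1.

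Of 6 mitophagy genes beside BNIP3 and BNIP3L, FKBP8 fell after knockdown (log2 fold change -0.37, limma adjusted p = 1.89e-05). Of all genes tested, 20.9% were called lower after knockdown, 16.6% higher and 21.8% lower with Torin-1, and 5.75% higher with apilimod. With Torin-1 BCL2L13 rose by 0.23 (limma adjusted p = 0.0414) and FUNDC1 fell by 0.40 (0.0268), and with apilimod the kinase PINK1 rose by 0.43 (0.0183). Each of these last 3 calls was lost without either DMSO sample, those of BCL2L13 and FUNDC1 also without Torin-1 replicate 1, and that of PINK1 also without either apilimod sample. The receptor genes for adrenomedullin were low. CALCRL and RAMP2 had means of 0.45 and 0.556 CPM in the knockdown table and 0.329 and 0.813 CPM in the drug table, and RAMP1 and RAMP3 were at 0 in every sample. The related peptide ADM2 had a log2 fold change of -0.31 after knockdown (limma adjusted p = 0.154) and 0.11 with apilimod (0.862), and rose by 0.72 with Torin-1 (0.0328), a call lost without DMSO replicate 1 or either Torin-1 sample.

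The 2 control groups differed in the level of these genes. In sgNC the mean of NDRG1 was 1728 ± 23.2 CPM (SD, n = 2) and in DMSO 199 ± 6.81 CPM (SD, n = 2), a ratio of 8.69. The ratio was 6.68 for EGLN3, 3.36 for ADM, 2.91 for P4HA1, 2.84 for ANKRD37, 2.46 for BNIP3L, 2.32 for KDM3A, 2.04 for BNIP3 and 1.16 for EGLN1. On log2(CPM + 1), 8 of the 9 were higher in sgNC by more than 1, as were 4.19% of the 13235 genes that passed the filter in both tables, and the median over those genes was 0.01. The tables were scaled separately and the experiments differ in vector, selection and handling, so no test was made and these cannot be told apart. Both sgPIKFYVE-1 samples still lay above both DMSO samples for all of the 9 genes except EGLN1. With sgPIKFYVE-1, NDRG1 had 742 and 723 CPM and EGLN3 36.9 and 35.2 CPM, and EGLN1 at 45.4 and 45.3 CPM lay below both DMSO samples.

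**Figure D5:**
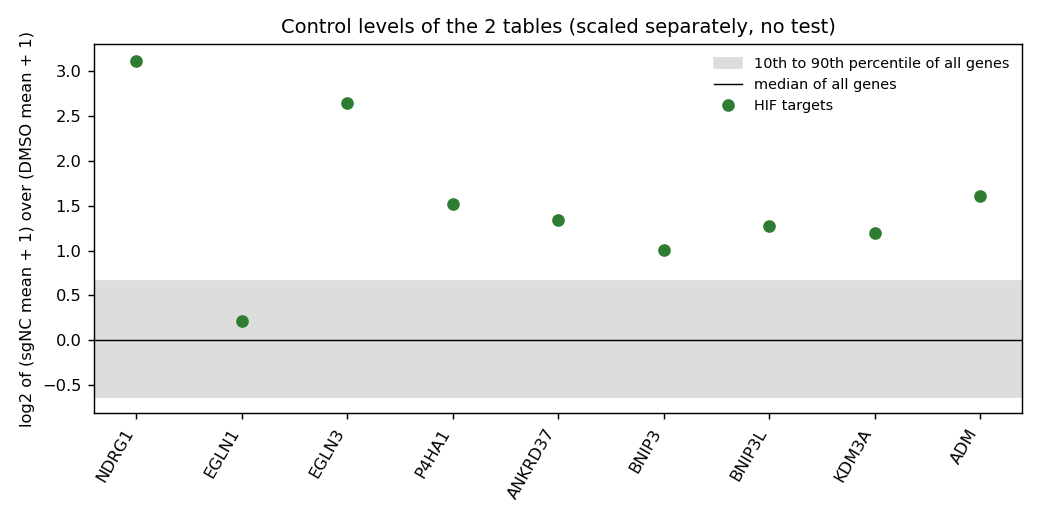
Difference between the 2 control groups for the 9 HIF targets tested in both tables, as the log2 ratio of the sgNC mean plus 1 to the DMSO mean plus 1 on the vertical axis, with the median and the 10th to 90th percentile of all genes as a line and a grey band. EGLN1, with a ratio of 1.16, lies inside the band, and the other 8 genes lie above it.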

How the data were processed

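RNA from QGP-1 cells was sequenced by the authors in 10 samples, 2 in each of 5 groups that were taken from the sample labels. The labels describe depletion of ribosomal RNA and the methods of the study oligo(dT) selection. Reads were demultiplexed with bcl2fastq 2.20 and trimmed with Trimmomatic, and hg38 is named, per the submitters' processing notes. The deposited values are a signal on the CPM scale, normalized by the authors with the TMM method (edgeR) in 2 tables, 1 per experiment. Sample sums were 972493 to 1024332. The planned design assumed plain CPM, and its log-scale test was kept. Of low values, 71.0% to 73.8% were whole reads within 0.02 read, too few for a count test.

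Genes averaging 1 CPM or more over their table were tested on log2(CPM + 1), which understates the change of low genes, with limma 3.58.1 (lmFit, eBayes with a trend) in R 4.3.3 and Benjamini-Hochberg adjustment over all genes tested. There were 4 samples in the fit of the knockdown and 6 in that of the drugs, which share DMSO. Members and lists were chosen with earlier results of these data known. Named genes outside the members are, per list and comparison, the 3 highest and 3 lowest log2 fold changes among called genes without overlap between groups. PIKFYVE, 6 core HIF genes and the 5 genes most like the members are also named by this rule. Outside it, BHLHE40 and DDIT4 after knockdown, VEGFA, TFRC with apilimod and with Torin-1, genes that overlap members, markers and receptors were added as context. A gene that this rule names is not reported here. Alternatives were a pseudocount of 0.1, no filter, no variance trend, quantile normalization, the replicate number as a block, a drug fit without the third group and each sample left out. The fit was tested on simulated data in which all genes and groups had the same extra spread between samples. The measured spread differed between groups, so that test does not set error rates for these data. Positions are those of GENCODE release 29, which holds 35547 of the 35606 gene IDs. Figures were drawn with matplotlib 3.10.9.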

Additional observations from a re-analysis of the deposited data

How the results depend on the processing

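The knockdown called 10 of the 10 HIF targets under every one of its 9 alternatives, and Torin-1 called 8 or 9 of 9, where KDM3A was lost without DMSO replicate 1 or without a variance trend, and ANKRD37 without the filter. Of 270 log2 fold changes of the targets over all alternatives, 11 moved by more than 1 SD between replicates. Only the pseudocount and quantile normalization could produce such a move. The filter, the variance trend, the block and the third group leave a log2 fold change as it is. Leaving out a sample cannot shift it by more than this SD. The sign changed for BNIP3 and KDM3A with apilimod, neither of them called. The apilimod calls were the least stable. Of the 9 targets tested, 2 were called by limma (3 at an unadjusted p under 0.05), and 1, NDRG1, with a pseudocount of 0.1 and after quantile normalization. Without the filter and without a variance trend 0 were called, with 3 at an unadjusted p under 0.05 in each, and with each sample left out 0 to 2, with 2 to 4 at an unadjusted p under 0.05. Of all genes tested, apilimod called 1155, against 565 without the filter, 466 without a variance trend and 597 to 835 with a sample left out. The knockdown called 5772, against 4037 without the filter and 3709 without a variance trend. Torin-1 called 5202, against 3906 without the filter and 3924 without a variance trend. The targets were picked with these results known, so the stability of their calls is no independent evidence. How many of all genes had an unadjusted p under 0.05 was not counted. With the replicate number as a block the knockdown called 6111 genes, apilimod 1756 and Torin-1 5903, and the numbers of targets called, 10, 2 and 9, did not change. The correlations of the deviations of samples with the same number were 0.04 in the knockdown and 0.04 to 0.10 in the drug table. With 2 pairs per contrast, these values do not settle whether such samples shared more than a number. Of 1160 tested values of other genes over all alternatives, 85 calls were lost, 9 were gained and 0 reversed.

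With 2 samples per group the smallest exact two-sided permutation p is 0.333, so calls rest on the spread that limma shares over genes. At these depths CA9, with 0 to 12 reads per drug sample, cannot show a fall with either drug, and it was not tested there.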
